A study of Mus musculus with 18 samples.

Results

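The LPS response of TLR4-K810R macrophages was described from 6 of the 18 RNA-seq libraries of the series, 3 treated with lipopolysaccharide (LPS) and 3 left without it, across all genes. TLR4-K810R mice carry an arginine in place of the lysine at that position of Toll-like receptor 4, in the cytoplasmic TIR domain, and were made by CRISPR knock-in on a C57BL/6 background. Peritoneal macrophages, elicited with thioglycolate medium, were given 100 ng/ml LPS for 6 h, and the mock-treated libraries are those that the labels call minus LPS. The other 12 libraries, 3 mock-treated and 3 LPS-treated of each of TLR4-WT and TLR4-K730R (the same substitution at another TIR lysine), entered the fit and are used for comparison of the response and of the levels of a few genes. The knock-in is carried by every cell of the animal, and neither the age and sex of the animals nor the number of animals behind a library is given in the sources used here. Nothing says that the 3 libraries of a group came from separate animals, so the p-values measure only the spread between these libraries, which may be technical.

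LPS, a component of the outer membrane of Gram-negative bacteria, is bound by TLR4 together with MD-2 and is handed over by CD14. The TIR domain of the receptor recruits the adaptors Mal and MyD88, which lead through IRAK kinases to NF-kB and the early inflammatory cytokines, and, from endosomes, TRAM and TRIF, which lead to IRF3, type I interferon and, through the interferon receptor, to interferon-stimulated genes. In macrophages both arms also switch on their own inhibitors.

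For every library the first-exon values and the last-exon values of a gene were each summed, and the larger sum was taken as its level, in FPKM (fragments per kilobase of length, relative to the mapped fragments of the library). Differences are given as log2(FPKM + 1), LPS-treated minus mock-treated, with the standard error of the fit. The pseudocount of 1 understates the change of genes with low values. Of 13598 genes with values, 9707 reached 1 FPKM in at least 3 of the 18 libraries and were tested. A gene was called higher or lower at an adjusted p below 0.01 (limma with Benjamini-Hochberg adjustment over all tested genes). The deposited files hold no counts, so the depth of each library is unknown and no counting interval can be given. Between 8925 and 9523 genes reached 1 FPKM in the mock-treated TLR4-K810R libraries and between 8548 and 8615 after LPS. Log2 values of libraries of the same group correlated at 0.961 to 0.973 across genes, and those of a mock-treated and an LPS-treated library at 0.848 to 0.868.

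The macrophage markers were present, with a summed level of 12938 to 15248 FPKM over the 9 listed genes with values in mock-treated libraries and 10160 to 11205 after LPS. Among them Cd14 was listed at 0 in all mock-treated libraries and in LPS-treated libraries 1 and 2, and at 463 FPKM in LPS-treated library 3, so it was not tested. Markers of T and NK cells summed to at most 0.0281 FPKM and those of B cells to at most 3.41, with the defining genes Cd3d, Cd3e, Cd3g, Blk and Ebf1 at 0 in every mock-treated library. Intestinal epithelial markers differed between the 2 groups: their sum over 12 genes was 62.6 to 143 FPKM in mock-treated libraries and 0.127 to 24.5 after LPS, and 6 of the 8 tested were called lower. The other genotypes did not show this fall. Without and with LPS the sums were 53 to 81.2 and 60.1 to 67.5 in TLR4-K730R, and 0.118 to 0.67 and 0.0928 to 16.9 in TLR4-WT. Mesothelial and fibroblast markers summed to 125 to 296 FPKM without LPS and 105 to 126 with it, the highest sum being in mock-treated library 3. Neutrophil markers summed to 54 to 63.6 and 187 to 210 FPKM. S100a8 gave 35.7 to 45.1 of this without LPS, beside 16.3 to 20.6 from Mmp8, and 165 to 192 with it, while Cxcr2 was at 0 in all 6 libraries. Camp was listed at 0 without LPS and at 3.95 to 4.61 FPKM with it and was called higher, and S100a9, not called, stood at 0.393 to 1.42 and 1.63 to 2.23. The lung marker Scgb1a1 stood at 1.52 to 2.11 FPKM in mock-treated libraries and at 1.25, 22 and 30.9 after LPS. Sftpc was listed at 0 in mock-treated libraries and at 0, 2.1 and 2.28 after LPS. Scgb3a2, Sftpa1, Sftpb and Sftpd were likewise above 0 only in LPS-treated libraries 2 and 3, so this signal belonged to single libraries. The part of these markers in the results was not tested, and in bulk RNA fewer cells of a type and less RNA per cell cannot be told apart.

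LPS changed the level of many genes, and the larger changes were rises. At this threshold 2797 of 9707 genes (28.8%) were called, 881 higher (9.08%) and 1916 lower (19.7%). A difference of at least 2 was reached by 267 of the genes called higher and 162 of those called lower, and one of at least 4 by 57 and 1. Together the genes called higher took 10.6% to 12.5% of the summed gene values in mock-treated libraries and 34% to 38.4% after LPS, whereas the genes called lower went from 28.9% to 30.2% down to 13.1% to 13.7%. The median of all tested genes was -0.26, and median-of-ratios scaling of the libraries moved it to -0.07, a shift of 0.20. With that scaling 1128 genes (11.6%) were called higher and 1234 (12.7%) lower, so the excess of falls depends on the scaling. Changes below should be read against the median of -0.26. The 3 mock-treated and 3 LPS-treated libraries did not overlap for 5097 genes (52.5%), 1420 of them higher after LPS (14.6%) and 3677 lower (37.9%). Of the genes called, 2791 were among these. The plot of response against level shows the reach of the rises.

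**Figure D1:**
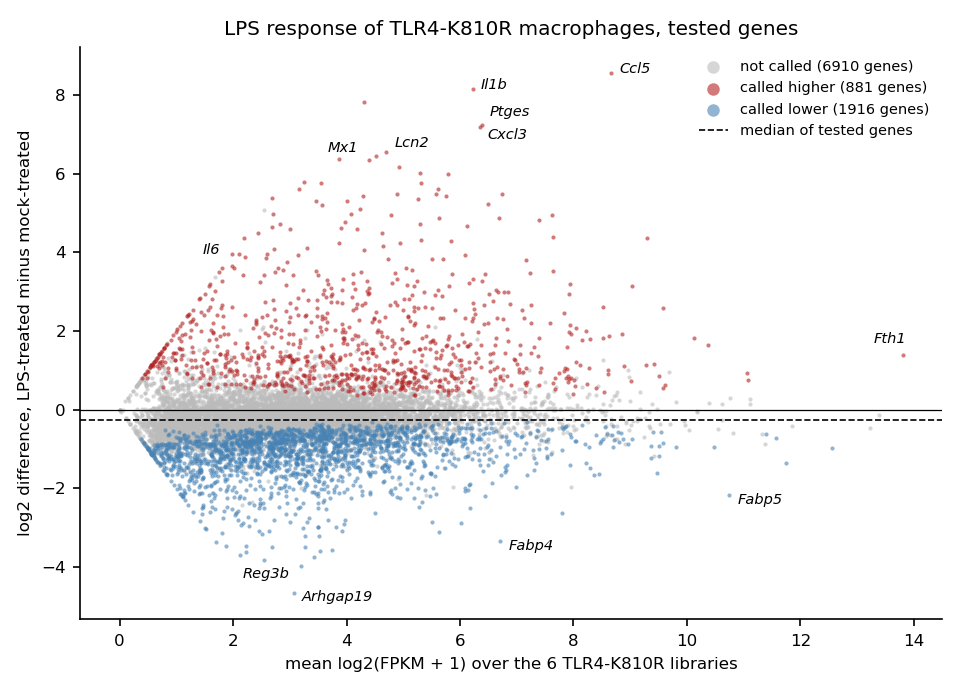
Log2 difference of LPS-treated minus mock-treated TLR4-K810R libraries (3 of each) against the mean log2(FPKM + 1) over the 6 libraries, 1 point per tested gene, with the 881 genes called higher in red, the 1916 called lower in blue and the median of -0.26 as a dashed line. The rises reach 8.56 (Ccl5), the falls -4.67 (Arhgap19), and the straight edges on the left are genes at or near 0 in one of the groups.

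The receptor itself was lower after LPS, while the adaptor gene Myd88 and the inhibitory kinase gene Irak3 were higher. Tlr4 (ENSMUSG00000039005, GRCm38 chromosome 4, 66827584 to 66930284, plus strand) was at 11.9, 11.7 and 13.9 FPKM in the mock-treated libraries and at 4.18, 4.74 and 5.28 after LPS, so that the groups did not overlap and the difference was -1.23 ± 0.15 (limma adjusted p = 4.74e-06). Ly96, which encodes the co-receptor MD-2, was at 10.6, 6.91 and 8.75 FPKM in the mock-treated libraries and at 11.3, 7.34 and 8.34 after LPS, with a difference of 0.03 ± 0.31 that did not pass the test and turned negative in 4 of the alternatives. Tirap, the gene of the adaptor Mal, was at 8.98, 8.55 and 9.88 FPKM in the mock-treated libraries and at 14.9, 13.1 and 11 after LPS. Its groups did not overlap, but its difference of 0.46 ± 0.13 missed the threshold (adjusted p = 0.0113) and passed it with scaling. Myd88 was at 26.9, 30.2 and 26 FPKM in the mock-treated libraries and at 78.9, 78.3 and 78.7 after LPS, a rise of 1.47 ± 0.09 with no overlap between the groups.

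Of 23 tested genes of TLR4 receptor and adaptor signalling, 6 were higher, 3 lower and 14 did not pass, and their median was 0.08. The counts of this and the following lists are to be read against the 9.08% of all tested genes called higher and the 19.7% called lower, and here the share of falls was below that background. Irak3, which encodes the catalytically inactive kinase that restrains MyD88 signalling, was at 9.27, 11.5 and 9.89 FPKM in the mock-treated libraries and at 60.6, 95 and 68.7 after LPS and rose most (2.73 ± 0.16). Ikbke, an IkB kinase relative that also acts on interferon regulatory factors, rose by 1.31 ± 0.13, and Peli1, a ubiquitin ligase of the pathway, by 1.13 ± 0.10. Map3k7, which encodes the kinase TAK1, and Tab1, which encodes a protein that binds it, were both lower. Tab1 and Map3k7 fell by 0.70 ± 0.12 and by 0.51 ± 0.09. The call of Map3k7 was lost with scaling (-0.31).

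Of 15 tested NF-kB genes and inhibitors of the pathway, 10 were higher, none was lower and 5 did not pass (median 1.27). Nfkb2, the gene of the p100 subunit, was at 15.6, 15.9 and 23 FPKM in the mock-treated libraries and at 146, 113 and 160 after LPS (2.88 ± 0.16). Nfkbia, which encodes the inhibitor IkBα, was at 62, 55.1 and 60.4 FPKM in the mock-treated libraries and at 398, 357 and 392 after LPS (2.67 ± 0.10). Every LPS-treated library lay far above every mock-treated one for both genes. Tnip1, which binds the deubiquitinase A20, rose by 2.70 ± 0.19, and the nuclear IkB protein gene Nfkbiz by 2.37 ± 0.25. Among the genes of mRNA decay and kinase feedback, 7 of 14 were higher and none lower (median 0.73). Zc3h12a, the gene of an endonuclease that destroys cytokine mRNAs, was at 7.71, 10.4 and 9.29 FPKM in the mock-treated libraries and at 52, 35.4 and 53 after LPS (2.22 ± 0.17). Its relative Zc3h12c rose by 2.23 ± 0.18, but by 0.82, short of the threshold, when first-exon values alone were used. Dusp16, a phosphatase of JNK and p38, rose by 1.84 ± 0.14.

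**Figure D2:**
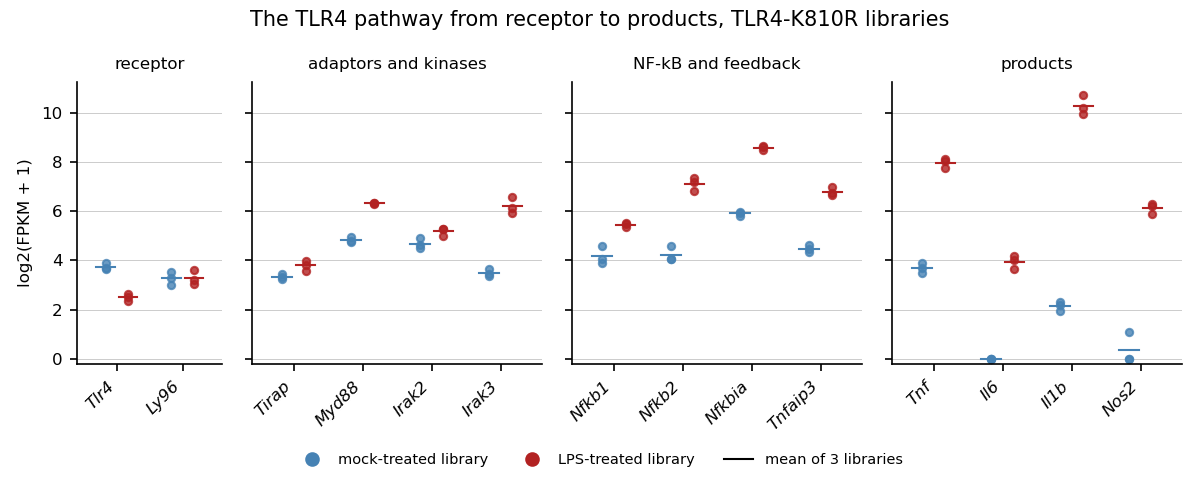
Log2(FPKM + 1) of genes from the receptor to the products of the TLR4 pathway in each mock-treated (blue) and LPS-treated (red) TLR4-K810R library, with horizontal lines at the mean of 3 libraries. Tlr4 is lower after LPS by 1.23, Ly96 overlaps between the groups, and the products Tnf, Il1b and Nos2 lie 4.28 to 8.15 higher, while Il6 is listed at 0 in every mock-treated library.

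Secreted cytokines were the second highest list, with 14 of 22 tested members higher and none lower (median 2.47). Il1b, an inflammatory cytokine released after inflammasome cleavage, was at 2.88, 3.52 and 3.99 FPKM in the mock-treated libraries and at 1182, 985 and 1703 after LPS (8.15 ± 0.26, adjusted p = 2.5e-12). Its relative Il1a was at 8.1, 5.87 and 4.72 FPKM in the mock-treated libraries and at 282, 271 and 415 after LPS (5.48 ± 0.25). Il1rn, which encodes the natural antagonist of the receptor that both cytokines use, was at 36.8, 49.9 and 42.9 FPKM in the mock-treated libraries and at 942, 925 and 874 after LPS. Tnf was at 11.8, 10.3 and 14 FPKM in the mock-treated libraries and at 264, 217 and 276 after LPS (4.28 ± 0.13), with no overlap. Il6 was listed at 0 in all 3 mock-treated libraries and at 15.4, 11.5 and 17.3 after LPS, and Il12a, one chain of interleukin-12, was listed at 0 in all 3 mock-treated libraries and at 20.3, 14.5 and 25.7 after LPS. Both were called higher, and no fold is given because a value of 0 in these files can be a failed estimate. Csf3, the granulocyte growth factor, was at 0.193, 0.324 and 0.713 FPKM in the mock-treated libraries and at 35.2, 26.9 and 47.2 after LPS (4.71 ± 0.33).

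Chemokines gave the largest single change. Ccl5, which attracts T cells and monocytes, was at 22.1, 18.5 and 19.2 FPKM in the mock-treated libraries and at 9915, 6498 and 7540 after LPS, a rise of 8.56 ± 0.15 (adjusted p = 1.92e-15). In all, 14 of 23 tested chemokine genes were higher and none lower (median 2.22). Of the neutrophil attractants, Cxcl3 was at 4.37, 7.88 and 5.36 FPKM in the mock-treated libraries and at 953, 811 and 1224 after LPS (7.19 ± 0.48), and Cxcl1 was at 5.82, 7.09 and 9.04 FPKM in the mock-treated libraries and at 323, 277 and 482 after LPS (5.42 ± 0.48). Cxcl10, an interferon-inducible ligand of CXCR3, was at 3.08, 2.38 and 5.19 FPKM in the mock-treated libraries and at 192, 192 and 208 after LPS (5.49 ± 0.40). In each of these genes the lowest LPS-treated library exceeded the highest mock-treated one.

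Of 28 receptors for cytokines and chemokines 9 were higher and 6 lower (median 0.37). The share of falls was near that of all tested genes (19.7%), and 9.08% of all genes were higher. Among the rises were Ccrl2, a non-signalling chemerin receptor (2.55 ± 0.13), Il15ra (2.41 ± 0.43), Il17ra (2.10 ± 0.16) and Tnfrsf1b (1.93 ± 0.19), the gene of TNF receptor 2. Tgfbr2, a chain of the TGF-β receptor, was at 31.3, 27.3 and 34.6 FPKM in the mock-treated libraries and at 5.78, 7.12 and 6.7 after LPS and fell most (-2.09 ± 0.12). Ccr2, the receptor that brings monocytes out of the marrow, was at 3.1, 3.39 and 6.32 FPKM in the mock-treated libraries and at 0.261, 0.124 and 0.243 after LPS (-2.07 ± 0.30). Ifngr1 and Tgfbr1 fell by 1.74 ± 0.32 and by 1.18 ± 0.18.

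Interferon-stimulated genes were the list with the highest median, 3.92, and 39 of its 40 tested members were higher. None was lower. Mx1, which encodes an antiviral GTPase, was at 0.876, 1.32 and 1.89 FPKM in the mock-treated libraries and at 190, 183 and 195 after LPS (6.35 ± 0.29). Ifit1, whose protein binds viral RNA ends, was at 2.69, 2.66 and 2.41 FPKM in the mock-treated libraries and at 244, 261 and 268 after LPS (6.17 ± 0.20). Ifit3 was at 4.17, 3.91 and 3.6 FPKM in the mock-treated libraries and at 307, 313 and 324 after LPS (6.01 ± 0.16). The 3 LPS-treated libraries were close to each other in these genes and the mock-treated ones near the floor. Slfn4 was at 1.35, 0.7 and 0 FPKM in the mock-treated libraries and at 84.9, 83.6 and 87.5 after LPS (5.77 ± 0.40). Members of this list have near-identical relatives (Ifit3 and Ifit3b, the Oas1 and Gbp families, Mx1 and Mx2), and how the authors shared reads between them is not given in the sources used here, so the values of single members are uncertain.

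Promoters of 7 of the genes that rose are shown because these genes moved together: the 4 interferon-stimulated genes, the cytokine and the 2 chemokines with the largest rises among those whose RefSeq start site lay within 50 bases of the strongest first-exon event of the LPS-treated libraries. Each is the 250 bases upstream of the start site in RefSeq (GRCm38.p6), 5′ to 3′ on the strand of the gene. Capitals mark matches on either strand to GAAANNGAA (the core of the interferon-stimulated response element, ISRE), to the κB consensus or to TGANTCA (an AP-1 site). These motifs were chosen after matches to other forms of the first 2 had been seen.
Ifit1 (chr19:34640639-34640888, plus strand): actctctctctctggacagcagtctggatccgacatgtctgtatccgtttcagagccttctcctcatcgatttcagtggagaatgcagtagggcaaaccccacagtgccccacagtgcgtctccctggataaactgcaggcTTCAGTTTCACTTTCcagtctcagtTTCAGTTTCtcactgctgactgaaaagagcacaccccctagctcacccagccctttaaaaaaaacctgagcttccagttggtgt
Ifit3 (chr19:34583279-34583528, plus strand): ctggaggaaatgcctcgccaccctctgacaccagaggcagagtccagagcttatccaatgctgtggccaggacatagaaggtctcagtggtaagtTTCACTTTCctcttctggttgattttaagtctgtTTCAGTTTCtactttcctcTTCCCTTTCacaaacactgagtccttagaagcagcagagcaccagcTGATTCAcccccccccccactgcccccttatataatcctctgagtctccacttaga
Slfn4 (chr11:83174936-83175185, plus strand): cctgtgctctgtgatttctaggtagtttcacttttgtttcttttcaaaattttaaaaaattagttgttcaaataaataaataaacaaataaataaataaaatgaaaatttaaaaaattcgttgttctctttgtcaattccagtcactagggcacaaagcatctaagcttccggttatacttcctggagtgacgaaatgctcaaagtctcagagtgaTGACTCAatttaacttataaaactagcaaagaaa
Rsad2 (chr12:26456453-26456702, minus strand): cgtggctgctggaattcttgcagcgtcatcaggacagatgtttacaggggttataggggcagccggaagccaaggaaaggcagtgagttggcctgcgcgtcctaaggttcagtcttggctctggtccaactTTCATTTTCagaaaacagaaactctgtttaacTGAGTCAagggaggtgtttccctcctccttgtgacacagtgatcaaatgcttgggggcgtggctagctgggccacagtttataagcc
Il1b (chr2:129371140-129371389, minus strand): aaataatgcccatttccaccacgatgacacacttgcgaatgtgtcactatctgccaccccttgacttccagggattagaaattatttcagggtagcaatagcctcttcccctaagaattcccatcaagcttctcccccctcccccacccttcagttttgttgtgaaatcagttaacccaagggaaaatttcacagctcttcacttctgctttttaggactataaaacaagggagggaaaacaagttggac
Cxcl3 (chr5:90785851-90786100, plus strand): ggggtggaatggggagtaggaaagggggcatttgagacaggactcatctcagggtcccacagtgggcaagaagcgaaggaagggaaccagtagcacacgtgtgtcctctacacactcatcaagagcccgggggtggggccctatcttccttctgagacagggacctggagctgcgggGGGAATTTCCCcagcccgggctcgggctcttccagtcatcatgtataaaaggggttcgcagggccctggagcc
Cxcl10 (chr5:92348890-92349139, minus strand): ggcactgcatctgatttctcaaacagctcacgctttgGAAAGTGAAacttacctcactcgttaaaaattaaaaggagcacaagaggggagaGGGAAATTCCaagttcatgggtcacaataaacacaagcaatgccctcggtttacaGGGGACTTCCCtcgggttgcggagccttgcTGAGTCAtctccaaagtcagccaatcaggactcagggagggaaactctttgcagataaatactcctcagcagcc

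The Ifit1 and Ifit3 promoters each held 3 matches to the ISRE letters, all reading on the opposite strand, those of Ifit1 starting 109, 103 and 84 bases upstream of the start site and those of Ifit3 starting 155, 121 and 102 bases upstream. Rsad2, the gene of the antiviral enzyme viperin, held 1 at 119 bases and Cxcl10 held 1 at 213 bases. Matches to the κB consensus were held by the 2 chemokine genes alone among the 7, in Cxcl3 at 73 and 72 bases and in Cxcl10 at 159, 104 and 103 bases upstream, the neighbouring ones overlapping each other. No match to one motif overlapped a match to another. Il1b held no match to any of the 3 motifs in this window, and Slfn4 held only an AP-1 match. A promoter was matched in this way for 5071 of the 9707 tested genes. The ISRE letters occurred in 10 of 21 matched interferon-stimulated genes that rose (47.6%), in 53 of 447 genes called higher (11.9%), in 52 of 1014 called lower (5.1%) and in 221 of 3610 not called (6.1%), beside 7.15% of all 32536 promoter sequences of this length. The κB consensus occurred in 14.8%, 8.9% and 8.9% of the genes called higher, called lower and not called (7.28% of all sequences), and the AP-1 letters in 7.6%, 4.2% and 3.8% (6.73% of all sequences). In the 21 matched interferon-stimulated genes the AP-1 letters occurred in 7 (33.3%) and the κB consensus in 6 (28.6%), so the higher share was not limited to the ISRE letters. These are descriptions of letters, not of bound sites.

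Effector enzymes and antimicrobial proteins held 29 rises and 4 falls among 37 tested genes (median 2.41). Ptges, the terminal enzyme of prostaglandin E2 synthesis, was at 6.09, 6.02 and 5.23 FPKM in the mock-treated libraries and at 1166, 1163 and 804 after LPS (7.25 ± 0.34). Lcn2, which encodes the siderophore-binding lipocalin 2, was at 2.07, 0.824 and 2.42 FPKM in the mock-treated libraries and at 236, 269 and 253 after LPS (6.56 ± 0.24). Slc7a2, an arginine transporter gene, was at 5.42, 5.04 and 7.6 FPKM in the mock-treated libraries and at 375, 489 and 451 after LPS (5.98 ± 0.19). All 3 separated the groups widely. Nos2, the inducible nitric oxide synthase, was at 0, 0 and 1.15 FPKM in the mock-treated libraries and at 74, 78 and 58.7 after LPS (5.78 ± 0.43). The falls were Plau, the urokinase gene (-2.03 ± 0.15), Ptgs1, the constitutive cyclooxygenase (-1.54 ± 0.23), and, with calls lost under scaling, the NADPH oxidase subunit gene Ncf1 (-0.84 ± 0.16) and the elastase gene Mmp12 (-0.64 ± 0.15).

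Of 25 genes of costimulation and antigen presentation 13 were higher and 3 lower (median 1.17). H2-M2, a class I gene of the M region, was at 1.45, 1.65 and 3.25 FPKM in the mock-treated libraries and at 81.1, 92.5 and 113 after LPS (4.98 ± 0.17). The peptide transporter gene Tap1 was at 16.7, 18.3 and 13.4 FPKM in the mock-treated libraries and at 157, 144 and 118 after LPS (3.04 ± 0.19). Each LPS-treated library exceeded each mock-treated one by a wide margin in both genes. Cd40, a costimulatory receptor, was at 8.6, 5.74 and 4.81 FPKM in the mock-treated libraries and at 53.6, 74.2 and 47.1 after LPS (3.01 ± 0.25). Psmb10, an immunoproteasome subunit, rose by 2.99 ± 0.39. The 3 members called lower, a smaller share than the 19.7% of all tested genes, were H2-DMa (-1.28 ± 0.33) and H2-DMb1 (-0.68 ± 0.14), which encode the chains of the class II peptide editor, and Ciita, the class II transactivator, at 1.46, 0.871 and 0.584 FPKM in the mock-treated libraries and listed at 0 in all 3 LPS-treated libraries. All 3 lost the call under scaling, with which 14 members were higher and none lower. Other class II genes of the list were not called, with differences of -0.21 ± 0.14 for H2-Aa, -0.49 ± 0.19 for H2-Eb1 and 0.71 ± 0.25 for H2-Ab1.

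Among other pattern receptors and nucleic acid sensors 5 of 19 were higher and 2 lower (median 0.40). Mlkl, the effector of necroptosis, was at 6.78, 6.3 and 7.13 FPKM in the mock-treated libraries and at 50.6, 46.9 and 45.5 after LPS (2.65 ± 0.15). Nod2 and Tlr2, receptors for bacterial wall components, rose by 2.27 ± 0.13 and 2.25 ± 0.15, and Tlr3 was listed at 0 in all 3 mock-treated libraries and at 4.47, 3.39 and 1.54 after LPS. Tlr13, a sensor of bacterial ribosomal RNA, fell (-1.19 ± 0.13), and so did Tmem173, the gene of STING (-0.81 ± 0.22), with its call lost in 9 alternatives. Of 18 immediate early and AP-1/ATF factors, 6 were higher and 4 lower (median -0.13), the latter a share near the 19.7% of all tested genes. The rises were led by Ier3 (1.85 ± 0.15), Fosl2 (1.70 ± 0.11), Batf (1.67 ± 0.16) and Maff (1.15 ± 0.23), and the falls were Egr1 (-0.87 ± 0.16), Atf3 (-0.84 ± 0.17, lost with scaling), Klf2 (-0.83 ± 0.12) and Fos (-0.80 ± 0.10). These are values at a single time, 6 h.

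Of 26 tested genes of macrophage lineage and tissue identity, 10 were lower and 6 higher (median -0.40), and with scaling 7 and 6. Falls also outnumbered rises among all tested genes (19.7% against 9.08%). The transcription factor gene Mef2c was at 4.17, 6.51 and 9.73 FPKM in the mock-treated libraries and at 0.814, 0.767 and 0.903 after LPS (-2.03 ± 0.29), and Mertk, a receptor for the uptake of dying cells, was at 20.2, 19.9 and 25.8 FPKM in the mock-treated libraries and at 6.12, 6.98 and 5.03 after LPS (-1.70 ± 0.25). C1qb, a subunit of complement C1q, fell by 1.48 ± 0.20. Gata6, the factor of resident peritoneal macrophages, was at 4.69, 4.23 and 10.9 FPKM in the mock-treated libraries and at 1.71, 1.29 and 1.78 after LPS (-1.45 ± 0.28). Wt1, a mesothelial marker, was at 5.15, 5.27 and 10.5 FPKM in the mock-treated libraries and at 2.05, 2.84 and 2.66 after LPS, with the highest value in mock-treated library 3 as for Gata6, and 8 of 9 tested mesothelial and fibroblast markers had a difference below 0 (median -1.01, 1 of them called). Of 5 tested markers of large resident peritoneal macrophages 2 were lower and 1 higher, and Timd4, which was not called, was at 0.354, 0 and 0.562 FPKM in the mock-treated libraries and at 1.2, 0.865 and 1.36 after LPS. The part of other cells in the fall of Gata6 was not tested. In the other direction Siglece, an inhibitory sialic acid receptor, was at 0.871, 0.612 and 2.04 FPKM in the mock-treated libraries and at 31.4, 29.8 and 22 after LPS (3.76 ± 0.21), and the Fc receptor genes Fcgr1, Fcgr2b and Fcgr4 rose by 2.34 ± 0.26, 1.77 ± 0.27 and 1.70 ± 0.35. Fc receptor genes share near-identical stretches and their split is uncertain.

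Alternative activation genes and scavenger receptors showed 6 falls and 3 rises among 16 (median -0.65), beside 19.7% falls and 9.08% rises over all tested genes. Pparg, the lipid-sensing nuclear receptor, was at 20, 8.44 and 20.2 FPKM in the mock-treated libraries and at 0.693, 0.891 and 1.11 after LPS (-3.09 ± 0.27). Mrc1, the mannose receptor, was at 22.5, 20 and 25.1 FPKM in the mock-treated libraries and at 4.32, 4.8 and 4.05 after LPS (-2.12 ± 0.13). Gas6, a ligand of MERTK and AXL, fell by 2.37 ± 0.17 and the lectin gene Clec10a by 1.54 ± 0.27. The rises were Tgm2, a transglutaminase (2.04 ± 0.11), the scavenger receptor gene Msr1 (1.73 ± 0.19) and Il4ra (1.21 ± 0.24).

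Of 34 lipid genes 11 were lower and 2 higher (median -0.60), beside 19.7% and 9.08% of all tested genes, and with scaling 7 and 2 (median -0.38). Fabp4, a target gene of PPARγ, was at 332, 329 and 334 FPKM in the mock-treated libraries and at 36.7, 29.3 and 29.5 after LPS (-3.35 ± 0.12), and Fabp5, another fatty acid binding protein gene, was at 3732, 3480 and 3745 FPKM in the mock-treated libraries and at 867, 792 and 755 after LPS (-2.18 ± 0.11). Lipa, the lysosomal acid lipase, was at 553, 544 and 564 FPKM in the mock-treated libraries and at 93, 78.1 and 96.5 after LPS (-2.63 ± 0.12). Relative to their level, these abundant genes varied little among the mock-treated libraries and more among the LPS-treated ones. Dhcr7, of the last step of cholesterol synthesis, fell by 2.02 ± 0.32. Abca1, the cholesterol exporter, was at 24.1, 19.6 and 28.9 FPKM in the mock-treated libraries and at 77.8, 87.1 and 89.7 after LPS and rose (1.78 ± 0.13), as did Npc2 (0.73 ± 0.15).

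The lysosome and proton pump list held 17 falls and 1 rise among 29 genes (median -0.74), the lowest median of the 20 lists. Scaling left 13 falls and 2 rises. Atp6v0d2, a subunit of the vacuolar proton pump, was at 170, 170 and 188 FPKM in the mock-treated libraries and at 24, 22.3 and 22.1 after LPS (-2.89 ± 0.14). Tfeb, the transcription factor of lysosomal genes, was at 43, 36.7 and 29.7 FPKM in the mock-treated libraries and at 9.27, 8.96 and 7.75 after LPS (-1.94 ± 0.13). The pump subunit Atp6v1a and the protease legumain (Lgmn) fell by 2.50 ± 0.47 and 1.61 ± 0.11. Ctsc, the protease that activates granule serine proteases, was the exception, at 77.9, 76.7 and 79.7 FPKM in the mock-treated libraries and at 194, 196 and 186 after LPS (1.29 ± 0.14), although its last-exon values alone gave -0.20.

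In central metabolism the counts depended on the scaling. Of 31 genes of the TCA cycle and respiratory chain, 12 were lower and 1 higher (median -0.38), and with scaling 4 and 1. Of all tested genes 19.7% were lower, and 12.7% with scaling, so that the share of falls under scaling was near the background. Idh1, the cytosolic isocitrate dehydrogenase, was at 128, 134 and 153 FPKM in the mock-treated libraries and at 31.7, 39.4 and 35.4 after LPS (-1.93 ± 0.18). Idh2, its mitochondrial form, was at 41, 39.2 and 50.8 FPKM in the mock-treated libraries and at 15.6, 16.2 and 14.6 after LPS (-1.43 ± 0.26). Both kept their call with scaling, and Cycs, the cytochrome c gene, was the rise (1.09 ± 0.15). Of 21 genes of glycolysis and the pentose phosphate path, 3 were higher and 2 lower. Their median was -0.01, and 0.21 with scaling. Pfkfb3, which makes the activator of phosphofructokinase, was at 12.6, 14.9 and 21.7 FPKM in the mock-treated libraries and at 51.4, 51 and 73.5 after LPS (1.79 ± 0.30), and Hk2 and Pgk1 rose by 0.81 ± 0.08 and 0.71 ± 0.12. Pfkfb4 (-0.50 ± 0.13) and Tpi1 (-0.49 ± 0.13) lost their calls with scaling. Among antioxidant and metal handling genes 10 of 27 were higher and 4 lower (median 0.49). Slc7a11, the cystine importer, was at 3.55, 4.53 and 3.63 FPKM in the mock-treated libraries and at 75.7, 74.3 and 92.1 after LPS (4.06 ± 0.25), and Prdx5 was at 318, 362 and 268 FPKM in the mock-treated libraries and at 1914, 1825 and 1892 after LPS (2.58 ± 0.17). Tfrc, the transferrin receptor, was at 62.7, 65.7 and 71.4 FPKM in the mock-treated libraries and at 12.1, 12.5 and 14.7 after LPS (-2.26 ± 0.23). The iron store gene Fth1 was at 6540, 7167 and 15004 FPKM in the mock-treated libraries and at 39663, 18653 and 16711 after LPS, and LPS-treated library 1 alone gave it 10.6% of its summed gene values against 4.82% and 5.38% in the others. The 22 cytosolic ribosomal protein genes showed 4 falls, a share near that of all tested genes (19.7%), and no rise (median -0.43), and scaling left 1 fall. Of 34 cell cycle genes, 2 were higher and 3 lower (median -0.38), among them the cyclin gene Ccnd3 (1.45 ± 0.19) and Pcna, the replication clamp (-1.01 ± 0.14).

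**Figure D3:**
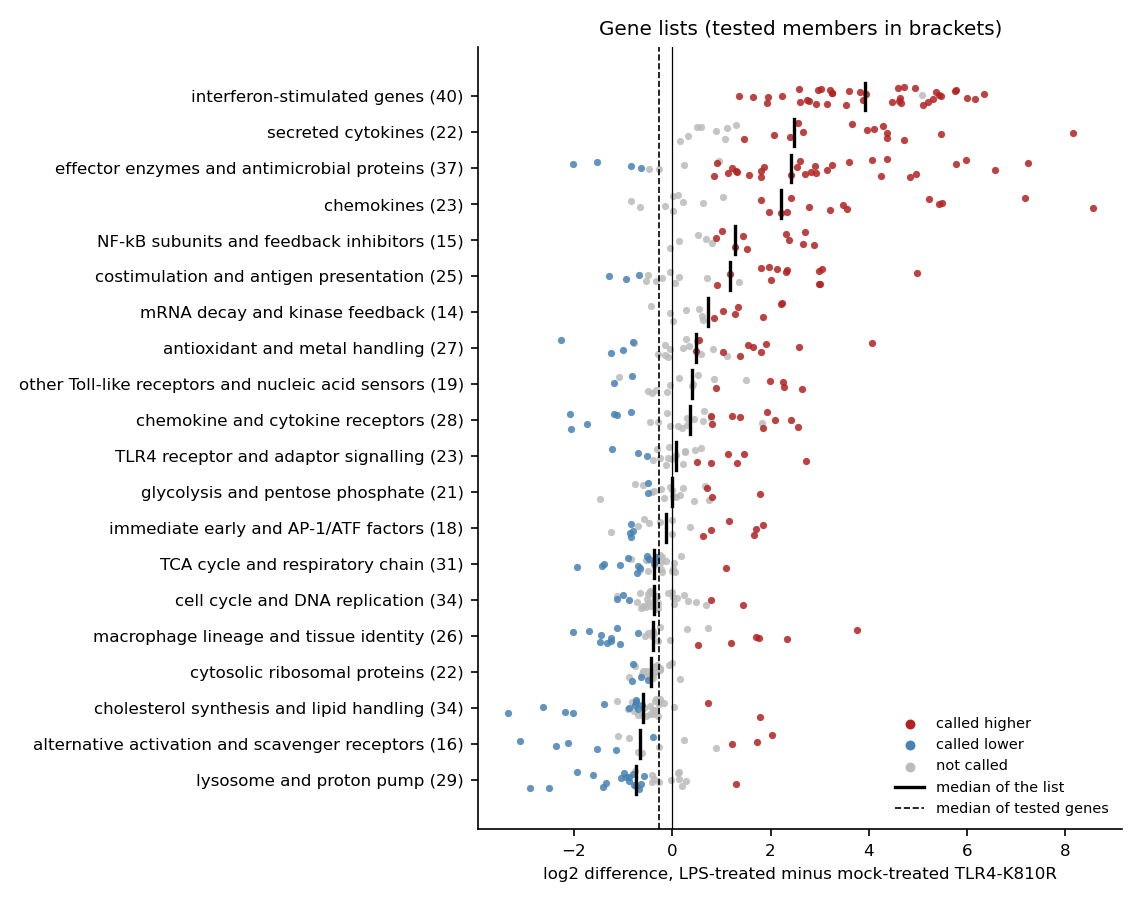
Log2 difference of LPS-treated minus mock-treated TLR4-K810R libraries for each tested member of 20 gene lists, ordered by the list median (thick bar), with members called higher in red, called lower in blue and not called in grey. The interferon-stimulated genes have the highest median (3.92) and the lysosome and proton pump genes the lowest (-0.74), and the dashed line is the median of all tested genes (-0.26).

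Among the 12 largest rises over all genes, 3 belonged to no list. U90926, a gene on chromosome 5 with no role stated here, was at 0.535, 0.497 and 0 FPKM in the mock-treated libraries and at 291, 297 and 298 after LPS (7.81 ± 0.16). Tarm1, an activating receptor of myeloid cells, was at 0.981, 2.21 and 1.25 FPKM in the mock-treated libraries and at 183, 214 and 248 after LPS (6.46 ± 0.21), and Ms4a4c was at 0.496, 0.784 and 0.521 FPKM in the mock-treated libraries and at 138, 135 and 124 after LPS (6.38 ± 0.30). Altogether 20 genes stayed below 1 FPKM in every mock-treated library and reached 10 in every LPS-treated one. Besides genes already named, these included, chosen after their values were seen, the uridine phosphorylase gene Upp1 at 0.855, 0.601 and 0.825 FPKM against 76.3, 75.6 and 55.4, and the cystatin gene Cst7 at 0.364, 0 and 0.165 against 13, 14.6 and 11.9. Of the genes called higher, 43 were listed at 0 in all 3 mock-treated libraries, some of them at low values after LPS. Those among the 20 were Gadl1, Il12a, Il6, A330040F15Rik and Il1f9, and a value of 0 can be a failed estimate.

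The largest falls took genes well expressed without LPS to low values. Arhgap19, a GTPase activator for RhoA, was at 38.1, 38.2 and 48.8 FPKM in the mock-treated libraries and at 0.608, 0.634 and 0.761 after LPS (-4.67 ± 0.16, adjusted p = 3.86e-12). St6gal1, which adds sialic acid to glycans, was at 22.7, 19.2 and 20.8 FPKM in the mock-treated libraries and at 0.291, 0.661 and 0.73 after LPS (-3.82 ± 0.21). Sesn1, a p53 target that restrains mTORC1, was at 38.9, 32.4 and 45.7 FPKM in the mock-treated libraries and at 2.07, 2.09 and 1.7 after LPS (-3.75 ± 0.16). In each the groups lay far apart. Arhgef6 (-3.70 ± 0.20), Slc46a3 (-3.63 ± 0.22), the lipase gene Pnpla7 (-3.59 ± 0.20), Daglb, which makes the endocannabinoid 2-arachidonoylglycerol (-3.57 ± 0.17), Epas1, the gene of HIF-2α (-3.51 ± 0.18), the lysosomal channel gene Tpcn1 (-3.49 ± 0.21) and 2010008C14Rik (-3.48 ± 0.18) fell by similar amounts. Pde2a, a cyclic nucleotide phosphodiesterase, was at 9.01, 11.1 and 14.1 FPKM in the mock-treated libraries and at 0.151, 0.109 and 0.0471 after LPS (-3.47 ± 0.47), but gave -0.05 when all events under its identifier were used. Reg3b, an antimicrobial lectin of intestinal epithelium, was at 32.4, 29.5 and 45.7 FPKM in the mock-treated libraries and at 9.26, 0.194 and 0 after LPS (-3.97 ± 0.65). It moved with the other intestinal markers given above, such as Lgals4 at 6.88, 3.27 and 32.1 FPKM against 2.52, 0.247 and 0.0503, and its difference was 1.08 in TLR4-WT and 0.58 in TLR4-K730R.

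**Figure D4:**
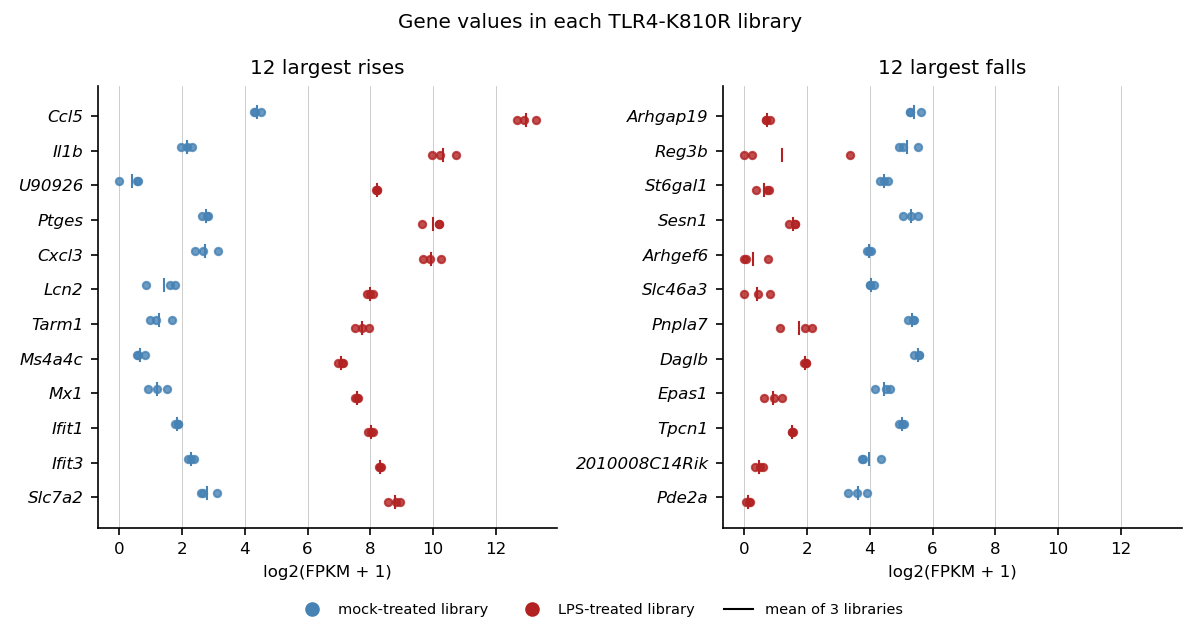
Log2(FPKM + 1) in each mock-treated (blue) and LPS-treated (red) TLR4-K810R library for the 12 genes with the largest rises and the 12 with the largest falls among called genes whose groups did not overlap, with vertical ticks at the mean of 3 libraries. Replicates lie close together except for Reg3b, whose LPS-treated libraries spread from 0 to 9.26 FPKM.

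The response was next set beside that of TLR4-WT, fitted in the same model, to ask which genes responded differently in the 2 genotypes. LPS changed 3328 of the 9707 tested genes in TLR4-WT and 3473 in TLR4-K730R. Calls in all genotypes rest on the same estimate of spread for each gene, so their overlap is not independent of it. Of the TLR4-K810R calls 2271 were shared with TLR4-WT, which is 81.2% of the former and 68.2% of the latter, and 2270 had the same direction. All 2161 genes called in all 3 genotypes had one direction. The difference of the responses itself passed the test for 12 of 9707 genes (0.124%), 10 with a larger value in TLR4-K810R (0.103%) and 2 with a smaller one (0.0206%), and 1277 had an unadjusted p under 0.05. In simulated data of this size the test found 80.8% of 4-fold and 25.3% of 2-fold differences of response, so smaller ones could be missed. Differences were planted only in genes with a mean log2 value above 2, so the rates do not cover genes of lower level. Leaving out 1 library gave 6 to 13 genes, with 6 when TLR4-WT mock 1, TLR4-WT LPS 2 or TLR4-K810R LPS 2 was left out and 7 without TLR4-K810R mock 1 or LPS 3. Plac8, Zbp1, Ccl5, Ifit3 and H2-M2 passed in every alternative that was run, and Oas3 in all but 1. The others were less stable: the call was lost in 15 of 26 alternatives for Mt2 and for Marco, in 14 of 26 for Tgfbi, in 14 of 24 for Acp5, in 13 of 23 for Ralgapa2 and in 10 of 24 for Adamtsl5.

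In 10 of the 12 genes every mock-treated TLR4-K810R library lay below every mock-treated TLR4-WT one, and in the other 2 above, beside 6.64% and 14.2% of all tested genes. These 12 were chosen for a difference of responses, to which a difference in mock level contributes by construction, so nothing is read from this count. After LPS 5 lay below, 4 above, and 3 (Ccl5, Oas3 and H2-M2) overlapped. Ccl5 stood at 80.2, 76.2 and 82.2 FPKM in mock-treated TLR4-WT libraries and at 22.1, 18.5 and 19.2 in TLR4-K810R, and after LPS at 7818, 9272 and 9345 against 9915, 6498 and 7540. The mock-treated groups did not overlap and the LPS-treated ones did, with a difference of responses of 1.79 ± 0.21 (limma adjusted p = 0.000612). H2-M2 stood at 16.4, 17.7 and 15.7 FPKM against 1.45, 1.65 and 3.25 before LPS, and at 83.1, 91.1 and 87.3 against 81.1, 92.5 and 113 after it (2.66 ± 0.24). Oas3, which makes the activator of RNase L, followed this pattern with 41.2, 33.3 and 48.7 against 7.19, 5.39 and 5.78, and 117, 125 and 95.2 against 118, 94.8 and 89 (2.39 ± 0.25). For Ifit3 the values were 30, 34.6 and 34.1 against 4.17, 3.91 and 3.6 before LPS, and 538, 545 and 386 against 307, 313 and 324 after it (2.17 ± 0.23). Zbp1, a sensor of Z-form nucleic acid, stood at 22.1, 26.7 and 20.7 against 6.88, 6.09 and 6.99, and at 243, 240 and 238 against 207, 178 and 214 (1.39 ± 0.15). For Ifit3 and Zbp1 the TLR4-K810R libraries were thus below those of TLR4-WT in both states. The lower mock level was not particular to TLR4-K810R. In TLR4-K730R the mock-treated libraries stood at 7.22, 6 and 6.01 FPKM for Ifit3, at 6.16, 6.09 and 7.25 for Zbp1, at 10.4, 10 and 7.69 for Oas3, at 5.2, 4.75 and 4.1 for H2-M2 and at 64.1, 66.2 and 49.9 for Ccl5, in each gene below all mock-treated TLR4-WT libraries. Its LPS differences were 5.84, 4.97, 3.55, 4.10 and 7.35 in this order, against 6.01, 4.71, 3.83, 4.98 and 8.56 in TLR4-K810R and 3.84, 3.33, 1.44, 2.32 and 6.77 in TLR4-WT. For none of the 5 did the difference of responses between TLR4-K810R and TLR4-K730R pass the test (limma adjusted p from 0.0825 for Ccl5 to 0.868 for Ifit3).

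In 29 of the 40 tested interferon-stimulated genes every mock-treated TLR4-K810R library lay below every mock-treated TLR4-WT one (6.64% of all tested genes), and in 1 every one lay above (14.2%). After LPS 26 of the 40 lay below (7.89%) and none above (17.4%). These counts rest on levels without a test, and whether the genotypes were handled together is not given in the sources used here, so genotype and any such batch cannot be told apart. Markers of other cells also differed between these mock-treated groups. Intestinal epithelial markers summed to 62.6 to 143 FPKM in TLR4-K810R against 0.118 to 0.67 in TLR4-WT, and mesothelial and fibroblast markers to 125 to 296 against 34.8 to 51.4. Their part in the differences between genotypes was not tested.

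Tgfbi, a matrix protein gene induced by TGF-β, and Acp5, the tartrate-resistant acid phosphatase, were lower in mock-treated and higher in LPS-treated TLR4-K810R libraries. Tgfbi went from 82.8, 92.2 and 89 FPKM to 447, 412 and 377, and in TLR4-WT from 132, 136 and 135 to 334, 264 and 332 (difference of responses 1.02 ± 0.16). Acp5 went from 150, 144 and 151 to 569, 644 and 570, and in TLR4-WT from 208, 218 and 243 to 409, 391 and 513 (1.03 ± 0.16). Marco, a scavenger receptor for bacteria, rose in TLR4-K810R from 39.2, 29.6 and 42.3 to 89.9, 86.8 and 81 FPKM. In TLR4-WT it stood at 135, 136 and 152 without LPS and 149, 141 and 133 with it, above TLR4-K810R in both states (1.20 ± 0.18). Adamtsl5, a secreted matrix protein gene, was at 16.7, 20.2 and 17.9 against 19.5, 18 and 16.2 in TLR4-K810R, and at 24.9, 20.3 and 22.5 against 8.91, 8.27 and 9.22 in TLR4-WT (1.24 ± 0.18). Ralgapa2 had low values throughout, 0.369 to 2.46 FPKM in TLR4-K810R, and in TLR4-WT went from 4.1, 2.84 and 1.6 to 0.0413, 0.0151 and 0.032 (2.51 ± 0.38).

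The differences of Plac8 and Mt2 were negative, and the call was kept in every alternative for Plac8 and in 11 of 26 for Mt2. Plac8, a small cysteine-rich protein gene, was at 5, 2.89 and 8.07 FPKM in mock-treated and 4.53, 4.61 and 3.87 in LPS-treated TLR4-K810R libraries, which overlapped, and went in TLR4-WT from 0.54, 0.897 and 0.736 to 23.5, 13.9 and 13.2 (-3.49 ± 0.44, adjusted p = 0.00124). Mt2, a metallothionein that binds zinc and copper, was at 27.4, 22.9 and 49.2 and then 57.4, 58.7 and 54.3 in TLR4-K810R, and went from 9.75, 9.62 and 10.3 to 114, 98.7 and 74.4 in TLR4-WT (-2.30 ± 0.36). For both, the mock-treated TLR4-K810R libraries lay above those of TLR4-WT and the LPS-treated ones below.

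For the best known products of the pathway a difference of responses was not shown. That of Nos2 was -2.29 ± 0.61 (adjusted p = 0.119), of Il1b -0.71 ± 0.37 (adjusted p = 0.431) and of Tnf 0.32 ± 0.19 (adjusted p = 0.495), all by limma. Il6 was listed at 0 in every mock-treated TLR4-K810R library, so no difference is given for it. Nos2 stood at 0, 0 and 1.15 FPKM in these libraries, so its difference is uncertain too. Those of Tlr4 (-0.20 ± 0.21) and Myd88 (0.01 ± 0.13) did not pass either.

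Against TLR4-K730R the response differed for 1 of 9707 genes (0.0103%), while 838 had an unadjusted p under 0.05. This was Hp, which encodes the haemoglobin scavenger haptoglobin. It went from 197, 164 and 165 to 1632, 1567 and 1461 FPKM in TLR4-K810R and from 428, 453 and 408 to 1082, 1174 and 941 in TLR4-K730R, a difference of responses of 1.84 ± 0.20 (limma adjusted p = 0.00141). With a replicate block no gene passed, and Hp was at an adjusted p of 0.0102. The TLR4-K810R libraries were the lower ones before LPS and the higher ones after it. Against TLR4-WT, at 256, 254 and 294 and then 877, 869 and 1286, the difference for Hp was 1.26 ± 0.20 and missed the threshold (adjusted p = 0.0109). Leaving out 1 library gave 1 to 4 genes, with 2 without TLR4-K730R mock 1, LPS 1 or LPS 3, 3 without TLR4-K810R mock 3 and 4 without TLR4-K810R LPS 1.

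**Figure D5:**
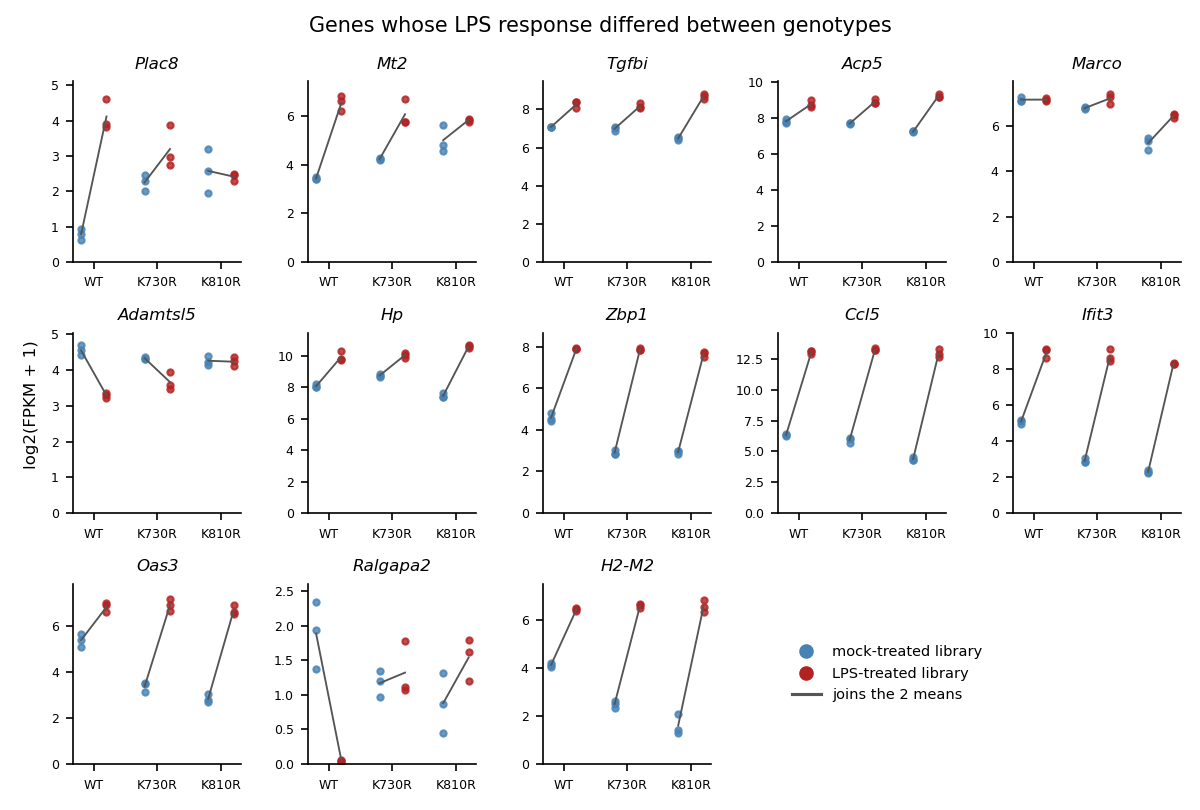
Log2(FPKM + 1) of the 13 genes whose LPS response differed, in each mock-treated (blue) and LPS-treated (red) library of each genotype (TLR4-WT, TLR4-K730R, TLR4-K810R), with a line joining the 2 means. For Ccl5, Oas3, H2-M2, Zbp1 and Ifit3 the lines of TLR4-K810R and TLR4-K730R both start lower and are steeper than that of TLR4-WT, and for Plac8 the TLR4-K810R line is flat where that of TLR4-WT rises by 3.33.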

How the data were processed

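RNA was extracted with the RNeasy Mini Kit and sequenced on an Illumina platform by GENEWIZ. The authors deposited 1 table per library of transcript events (20 event types such as first and last exons) with an FPKM value each, a normalization to event length and library size. The aligner, the assembler and the strandedness of the libraries are not given in the sources used here. The submitters' processing notes name the build hg18, a human build, but the coordinates were those of mouse: 92.78% of the rows with a gene identifier overlapped that gene in GENCODE M21 (GRCm38), and 14126 of 14138 identifiers were found there.

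Only events that lay on the gene's own strand and overlapped it were kept, which dropped 5.99% of the first-exon and last-exon FPKM. The 2 kinds were summed separately for each gene, and the higher sum was used. Where genes overlap on opposite strands, or have near-identical copies, their values are uncertain. Genes below 1 FPKM in all but 2 or fewer of the 18 libraries were left out, and log2(FPKM + 1) values were fitted with limma 3.58.1 (R 4.3.3) in 1 model of 6 groups with a variance trend, and p-values were adjusted by the Benjamini-Hochberg method over 9707 genes. The study's own cutoff, 0.01, was applied to the adjusted p. Differences of responses were interaction terms of this fit. With no counts in the files, no count test could be run and the depth is unknown. On simulated data drawn from these libraries, the test of LPS against mock found 58% of 2-fold and 92.8% of 4-fold changes.

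The genes and lists were chosen with earlier results of these data known. Named were 9 genes of the TLR4 pathway, the 12 called genes that rose most and the 12 that fell most, both with separated groups, in each list the 4 called members with the largest change in each direction, and every gene whose response differed. The lists are also the source of the markers of other cells. Lists include genes for which no value was analysed here. Alternatives were other pseudocounts, filters, scaling, weights, thresholds, event sums, a replicate block and leaving out each library. Whether replicate numbers pair the libraries is not given, and the main fit did not pair them.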

Additional observations from a re-analysis of the deposited data

Results flagged for a closer look

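The LPS response of 13 genes differed between TLR4-K810R and another genotype by a test of the difference itself (limma interaction, adjusted p below 0.01). Against TLR4-WT the log2 difference of the responses was -3.49 for Plac8 and -2.30 for Mt2. It was positive for Tgfbi (1.02), Acp5 (1.03), Marco (1.20), Adamtsl5 (1.24), Zbp1 (1.39), Ccl5 (1.79), Ifit3 (2.17), Oas3 (2.39), Ralgapa2 (2.51) and H2-M2 (2.66). Against TLR4-K730R it was 1.84 for Hp. Mt2, Marco, Tgfbi, Acp5 and Ralgapa2 each lost the call in more than 12 alternatives and Adamtsl5 in 10.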

How the results depend on the processing

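The count of 2797 genes called in TLR4-K810R moved by less than 1.5 times in the alternatives run, except among the 4534 tested genes with closely matching end sums (within 1.1 times), where fewer genes were tested and 1605 were called, 491 higher and 1114 lower. Median-of-ratios scaling lowered the count of falls to 1234. Leaving out 1 library gave 761 to 831 higher and 1506 to 1676 lower. For the difference from the TLR4-WT response (12 genes), library weights gave 37 genes, a threshold of 0.05 gave 57, and leaving out 1 library gave 6 to 13. Against TLR4-K730R (1 gene), 3 genes passed without a filter, 2 each with library weights, a threshold of 0.05, last-exon sums, all events or matching end sums, and 1 to 4 without 1 library. A replicate block gave 6 and 0 genes in these comparisons by limma (838 had an unadjusted p under 0.05 against TLR4-K730R without the block) and 836 higher and 1809 lower in the response itself. Same-numbered TLR4-K810R libraries did not deviate together from their group means (r -0.052, 0.027 and -0.044), and not every library correlated best with its own number. So few values from such small groups cannot settle whether the numbers pair the libraries, and the labels do not say. The cause of these shifts was not tested.

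Of the values of named genes under an alternative, 2678 kept direction and side of the threshold, 97 lost the call, 8 gained it and 14 turned sign. Of the values of response differences 244 kept the call and 83 lost it. Scaling turned Adamtsl5 to 0.19 and Plac8 to 0.03, neither called, and no value below that turned sign was called. Last-exon sums turned Ctsc to -0.20, Gpx1 to 1.95 and Idh3g to 0.58, and first-exon sums turned Mdh1 to 0.06 and Rpl11 to 0.02. Ly96 was at -0.05 with library weights and -0.00 with all events. Leaving out 1 library moved Adamtsl5 between -0.09 and 0.05, Ly96 between -0.13 and 0.17 and Plac8 between -0.47 and 0.14. The depth behind each value is unknown and limits what low values can show.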
